A study of Homo sapiens with 8 samples.

Results

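The genes described here are 37 genes of the ATF4 stress response and of amino acid synthesis, chosen by symbol from a list. They were followed in HepG2 cells with EDN1 overexpression and in mock cells. The list was chosen with earlier results of these data known, so counts over it are descriptions and not independent evidence. HepG2 is a human hepatic tumour line, labelled as hepatocellular carcinoma, and EDN1 encodes the precursor of the secreted peptide endothelin-1. All 37 were found among the 24462 genes of the deposited count table, and 35 passed the filter on low counts. Total RNA of cultured cells was sequenced as 4 libraries labelled EDN1 O/E and 4 labelled mock, with a QuantSeq kit, which counts 1 short stretch close to the poly(A) tail of each transcript. Both groups grew in the same serum-supplemented medium without further treatment. The labels do not say how EDN1 was introduced, whether either line is a clone, or whether replicate libraries represent different cultures. The p-values therefore reflect variation among these libraries alone, which may be technical.

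The integrated stress response begins with kinases that sense amino acid shortage, heme shortage or misfolded proteins and phosphorylate the translation initiation factor eIF2. Translation then falls in general while that of ATF4, a transcription factor of the bZIP family, increases, and ATF4 with its partners switches on genes for amino acid synthesis, amino acid uptake and stress signalling. In liver cells this response governs serine, asparagine and one-carbon metabolism, and several of its secreted products act on other tissues. Transcript levels, as measured here, do not show eIF2 phosphorylation or ATF4 protein.

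Total counts ranged from 8571252 to 11686180 per library in EDN1 overexpression and from 8409173 to 14932385 in mock. EDN1 was at 228, 259, 417 and 548 CPM (counts scaled to library size, with TMM factors) in EDN1 overexpression libraries 1 to 4 and at 2.26, 1.11, 1.04 and 1.38 CPM in mock libraries 1 to 4, so all 8 libraries matched their labels. Marker levels are given as CPM on library totals, without TMM factors. All 10 hepatocyte markers examined were detected, with a summed level of 9469 to 12776 CPM in EDN1 overexpression and 10610 to 13313 CPM in mock. Fibroblast markers summed to at most 7.70 CPM in EDN1 overexpression and 8.70 CPM in mock, and endothelial markers to at most 0.876 and 0.562 CPM. Of the blood and immune markers, LYZ alone was abundant, and the others summed to at most 33.0 CPM. Clustering without the group labels set EDN1 3, EDN1 4 and mock 4 (the second library set) apart. EDN1 1, EDN1 2 and mock 1 to 3 formed the first library set, and no label names a batch. The sets hold EDN1 and mock libraries in unequal shares, so set and group are partly confounded. Results are therefore also given within these sets, where the second set has a lone mock library that is assumed to vary like the EDN1 libraries.

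The letters bound by ATF4 together with C/EBP factors, known as the C/EBP-ATF response element, were looked for in the promoters. Known ATF4 targets are defined in part by this element, so its share among genes chosen as an ATF4 response is a description and not independent of that choice. The core searched was TGATGNAA on both strands, whose reverse complement is TTNCATCA, within 250 bases before to 50 after each RefSeq start site. It was present in 6 of the 29 member promoters listed (20.7%), against 3.67% of 27305 RefSeq promoters. EIF2AK1, EIF4EBP1, GPT2, NUPR1, PSPH, PYCR1, SHMT2 and ALDH1L2 had no entry. The palindrome TGACGTCA, the cyclic AMP response element, was present in the promoter of PPP1R15A alone of the 29 (3.45%), against 1.98% of all promoters, and 0 member promoters held both. The 6 stretches around the core are shown because they carry letters that match the core of the C/EBP-ATF response element. They are on the strand of the gene, from RefSeq on build GRCh38.p14, with the core in capitals.
ASNS, chr7:97872419-97872526, minus strand, core 68 to 61 bases before the start: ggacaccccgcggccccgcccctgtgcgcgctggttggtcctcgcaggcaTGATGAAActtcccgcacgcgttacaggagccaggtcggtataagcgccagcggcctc
ATF3, chr1:212565166-212565273, plus strand, core 191 to 184 bases before the start: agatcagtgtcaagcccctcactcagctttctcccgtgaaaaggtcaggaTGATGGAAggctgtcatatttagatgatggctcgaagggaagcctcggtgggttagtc
MTHFD1L, chr6:150866307-150866414, plus strand, core 129 to 122 bases before the start: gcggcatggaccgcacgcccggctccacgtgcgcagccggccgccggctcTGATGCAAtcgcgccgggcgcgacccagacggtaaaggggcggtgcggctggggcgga
GOT1, chr10:99430765-99430872, minus strand, core 198 to 191 bases before the start: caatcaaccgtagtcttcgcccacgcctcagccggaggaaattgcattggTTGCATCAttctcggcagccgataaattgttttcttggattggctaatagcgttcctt
CHAC1, chr15:40953221-40953319, plus strand, core 209 to 202 bases before the start: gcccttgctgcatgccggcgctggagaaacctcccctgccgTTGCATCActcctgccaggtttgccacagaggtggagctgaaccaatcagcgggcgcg
FGF21, chr19:48755420-48755523, plus strand, core 54 to 47 bases before the start: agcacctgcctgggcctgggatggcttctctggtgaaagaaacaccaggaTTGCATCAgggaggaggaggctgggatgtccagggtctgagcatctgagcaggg
A match describes letters only and is not evidence of binding in these cells. ASNS, ATF3, MTHFD1L and GOT1 were among the tested genes, and CHAC1 and FGF21 were near the limit of detection.

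Of the 35 tested members, 30 had a negative log2 fold change in EDN1 overexpression against mock, where 49.7% of all 12577 tested genes did. Because the list was chosen with earlier results of these data known, this excess is a description. The median log2 fold change of the members was -0.31, against 0.00098 over all tested genes. Adjusted over all genes by the Benjamini-Hochberg method, no member passed the quasi-likelihood test of edgeR (adjusted p = 1.00 for each), and EDN1 was the only gene that did (0.00795% of those tested). DESeq2 and limma voom also called 0 members. At an unadjusted p under 0.05 there were 5 members lower (PHGDH, MTHFD1L, MTHFD2, STC2 and ATF3), where 0.827% of all genes were lower at that limit. There were 0 members higher, where 2.03% of all genes were. A log2 fold change below -0.5 was found in 7 members, against 3.05% of all genes. These counts rest on single libraries: the 5 became 15 without EDN1 2, 9 without EDN1 4, 8 without mock 2 and 7 without mock 4. There were 3 without EDN1 3 or mock 3 and 2 without EDN1 1 or mock 1. A fit of the first library set alone gave 4, and all libraries with the set as a term gave 3. The second set has a lone mock library, so no count is given for it. All tested genes at that limit, in either direction by edgeR, numbered 359 of 12577 in the main fit. Leaving out EDN1 2, EDN1 4, mock 2 and mock 4 in turn gave 641, 738, 358 and 576. Leaving out EDN1 1, EDN1 3, mock 1 and mock 3 gave 229, 184, 316 and 220. The first set alone gave 318, and the set as a term gave 526. The members' median log2 fold change was -0.25 and -0.28 within the first and second sets. The 4 tested members with the C/EBP-ATF core had a median log2 fold change of -0.44 (range -0.82 to -0.17). The 23 without it had one of -0.31 (range -0.67 to 0.25). Members with no promoter entry are in neither group, and the difference was not tested.

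**Figure D1:**
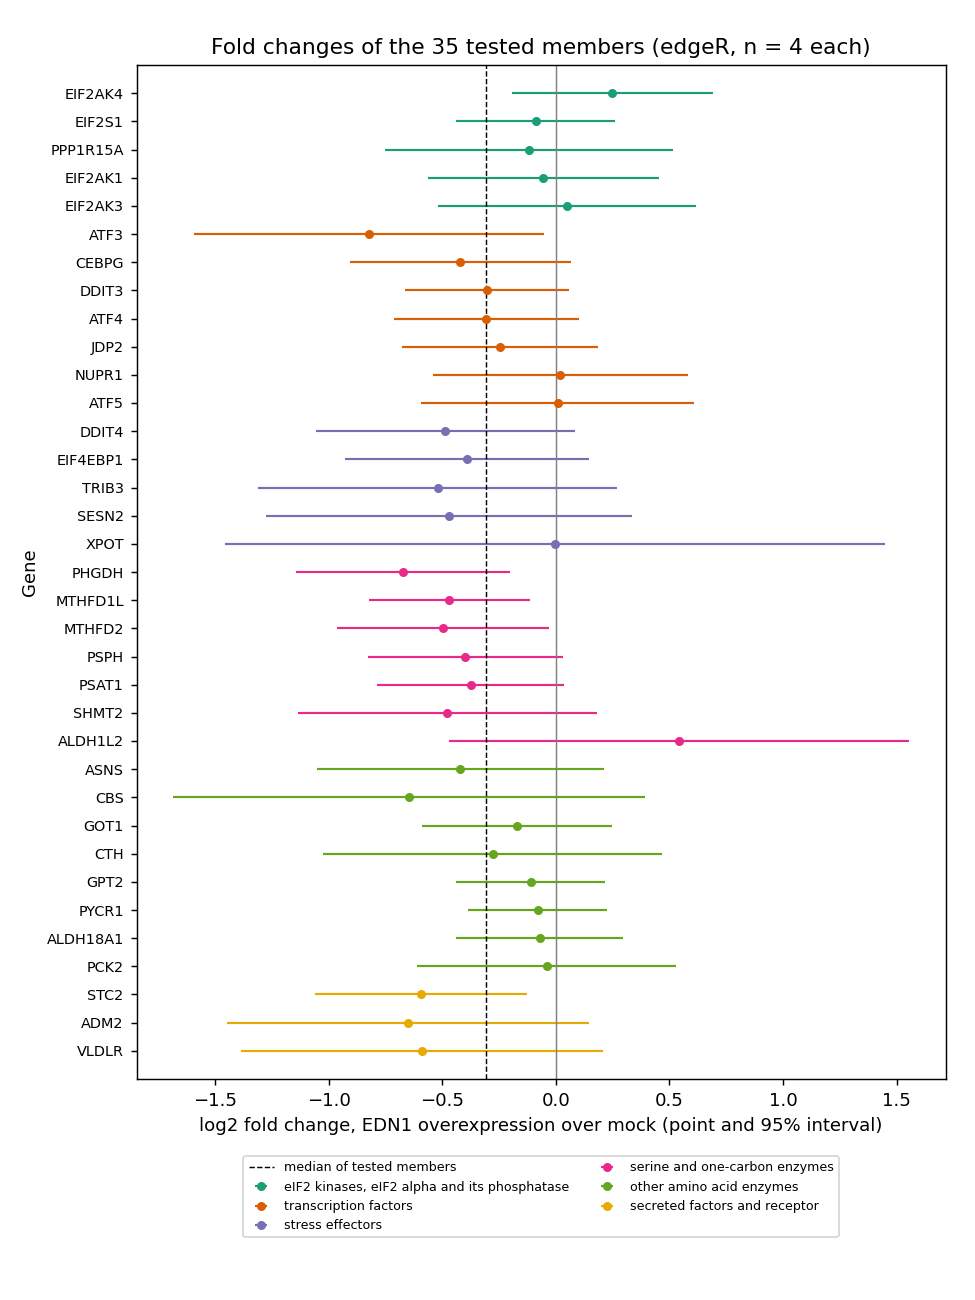
Log2 fold change of each tested member, EDN1 overexpression over mock (horizontal axis, point with its 95% interval), from edgeR with 4 libraries a group, coloured by role. Most points lie left of 0, with the member median at -0.31, and the intervals of PHGDH, MTHFD1L, MTHFD2, STC2 and ATF3 alone do not reach 0.

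The sensing end of the pathway showed small differences. The 5 genes for eIF2 kinases, eIF2 alpha and its phosphatase had log2 fold changes from -0.12 to 0.25. EIF2AK4, whose kinase GCN2 responds to uncharged tRNA, was at 47.3, 32.3, 60.0 and 47.7 CPM in EDN1 1 to 4 and at 39.4, 40.6, 31.6 and 46.0 CPM in mock 1 to 4. EDN1 3 was the highest of the 8, while EDN1 2 lay beside the lowest mock library. Its log2 fold change was 0.25 (SE 0.20), with 0.10 and 0.22 in the first and second sets, 0.11 without EDN1 3 and 0.39 without EDN1 2.

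EIF2AK1, which encodes the heme-regulated kinase HRI, was at 405, 364, 300.1 and 209 CPM in EDN1 1 to 4 and at 396, 311, 379.9 and 241 CPM in mock 1 to 4. EIF2AK3, which encodes the endoplasmic reticulum kinase PERK, was at 62.1, 81.2, 46.9 and 51.7 CPM in EDN1 1 to 4 and at 52.5, 60.6, 84.4 and 36.9 CPM in mock 1 to 4. Both kinase genes were lower in each library of the second set than in any of the first, and the EDN1 and mock groups overlapped. The log2 fold change of EIF2AK1 was -0.05 (SE 0.23), turning to 0.086 and 0.068 within the first and second sets, and that of EIF2AK3 was 0.05 (SE 0.26), with 0.12 and 0.41 within the sets and -0.13 without EDN1 2.

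EIF2S1, the gene of the phosphorylated subunit eIF2 alpha, was at 74.3, 75.0, 64.9 and 60.9 CPM in EDN1 1 to 4 and at 84.7, 59.1, 82.4 and 66.4 CPM in mock 1 to 4. All 4 EDN1 libraries lay inside the mock range, and the log2 fold change was -0.09 (SE 0.16), from -0.18 without mock 2 to -0.01 without mock 1, with -0.03 without mock 3 and -0.04 without EDN1 4. PPP1R15A, which encodes the stress-induced phosphatase subunit GADD34 that reverses the phosphorylation, was at 109, 147, 153 and 126 CPM in EDN1 1 to 4 and at 196, 65.0, 152 and 168 CPM in mock 1 to 4. Mock 1 and mock 2 were its highest and lowest libraries, and its log2 fold change of -0.12 (SE 0.29) was 0.061 without mock 1 and -0.36 without mock 2.

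Among the 7 transcription factor genes, 5 had negative fold changes, and the range was from -0.82 to 0.02. ATF4 itself was at 910.2, 1069, 694 and 849.8 CPM in EDN1 1 to 4 and at 1253, 1078, 1186 and 842 CPM in mock 1 to 4. Within the first set both EDN1 libraries were below all 3 mock libraries, while in the second set mock 4 lay between the 2 EDN1 libraries. ATF4 averaged 881 ± 155 CPM in EDN1 overexpression and 1089.6 ± 180.0 CPM in mock (SD, n = 4 each), which gave -0.31 (SE 0.18) on the log2 scale, with a 95% interval of -0.71 to 0.10, and -0.24 and -0.14 within the first and second sets.

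ATF3, a stress-induced bZIP factor, had the most negative fold change of the tested members. It was at 35.3, 71.2, 24.9 and 59.6 CPM in EDN1 1 to 4 and at 134, 58.8, 75.9 and 68.5 CPM in mock 1 to 4. EDN1 1 and EDN1 3 were lower than all mock libraries, EDN1 2 and EDN1 4 were inside the mock range, and mock 1 was the highest library. On the log2 scale the fold change was -0.82 (SE 0.35), with an interval of -1.59 to -0.05, and -0.51 when mock 1 was left out.

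CEBPG, a C/EBP factor that pairs with ATF4, was at 60.4, 101, 52.8 and 73.1 CPM in EDN1 1 to 4 and at 124, 88.1, 91.8 and 80.7 CPM in mock 1 to 4. DDIT3, which encodes the factor CHOP, was at 108, 140.0, 96.0 and 119 CPM in EDN1 1 to 4 and at 173, 129, 137 and 131 CPM in mock 1 to 4. In both genes EDN1 2 alone of its group lay inside the mock range. Their log2 fold changes were -0.42 (SE 0.22) and -0.30 (SE 0.16), and without mock 1 they were -0.27 and -0.20. DDIT3 overlaps MARS and MBD6 on the opposite strand, and whether the counting used strand is not stated in the labels. JDP2, an ATF3-like repressor, was at -0.25 (SE 0.19) on the same scale, with -0.13 without EDN1 1, -0.15 without mock 4, -0.16 without mock 1 and -0.41 in the second set. NUPR1, a stress-induced chromatin protein, and ATF5, a factor related to ATF4, were at 0.02 (SE 0.25) and 0.0080 (SE 0.27), with signs that turned in several settings.

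**Figure D2:**
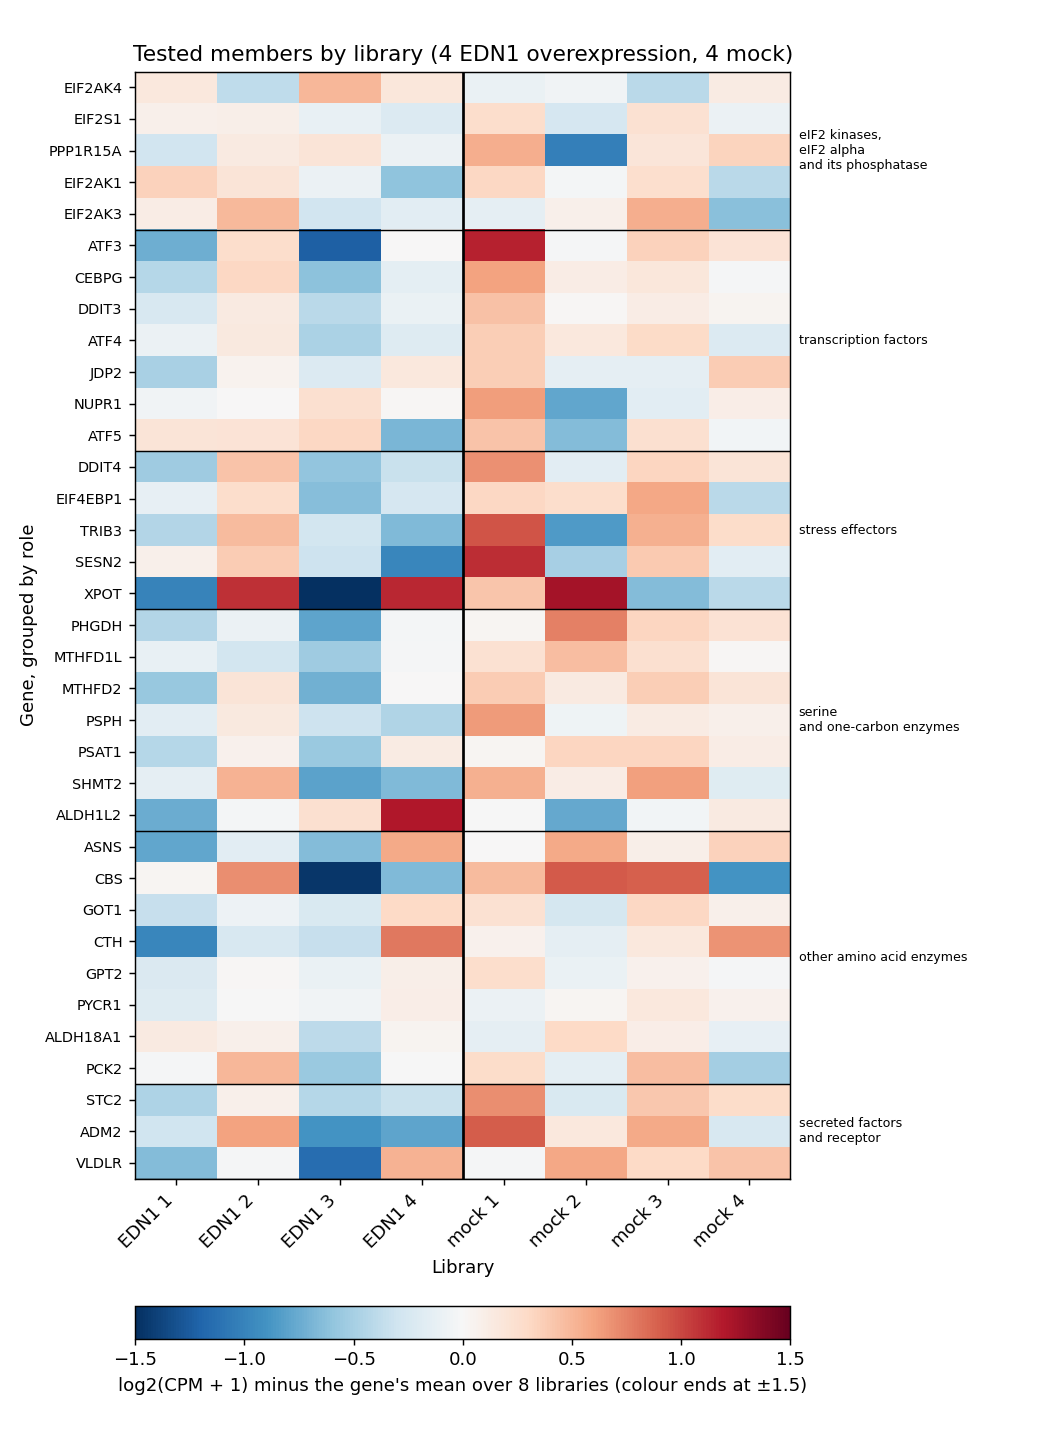
Level of each tested member (rows, by role) in each library (columns, EDN1 overexpression on the left and mock on the right), as log2(CPM + 1) minus the gene's mean over the 8 libraries. EDN1 1 and EDN1 3 are mostly blue (lower) and mock 1 and mock 3 mostly red (higher), while the kinase genes at the top show no such contrast.

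Part of the library pattern recurred across the roles below the sensors. Each library's level for the list was taken as the median over the 35 members of log2 CPM minus the gene's own mean over the 8 libraries. It was -0.24, 0.14, -0.41 and -0.03 in EDN1 1 to 4 and 0.37, -0.01, 0.26 and 0.07 in mock 1 to 4, while the same median over all tested genes lay between -0.01 and 0.02 in every library. EDN1 1, EDN1 3 and, by a narrow margin to mock 2, EDN1 4 were below every mock library, and EDN1 2 was above 2 of the 4. In each of the 5 roles other than the sensors, the medians of EDN1 1 and EDN1 3 were also below those of every mock library, while EDN1 2 and EDN1 4 differed by role. EDN1 4 was at -0.34 for the stress effectors, below every mock library, and at 0.091 for the other amino acid enzymes, above mock 2 (-0.04) and mock 4 (0.02). EDN1 2 was at 0.43 for the stress effectors, above 3 of the 4 mock libraries, and at 0.068 for the serine and one-carbon enzymes, below all 4. These differences between roles were not tested. Counted by gene, 27, 9, 30 and 20 of the 35 members were below their own mean in EDN1 1 to 4 and 5, 18, 5 and 15 in mock 1 to 4. Of all tested genes, 45.9% to 50.5% were below their own mean in each library. EDN1 3 was the lowest of the 8 libraries in 17 members and mock 1 the highest in 16. Over all 12577 tested genes, EDN1 3 was the lowest in 2050 and the highest in 2300, and mock 1 was the highest in 1667. Mock 1 and mock 4 were the most deeply sequenced libraries, and the part of depth in this pattern was not tested.

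Serine synthesis and mitochondrial one-carbon enzymes held the 2 members whose groups did not overlap, both lower in EDN1 overexpression, where 0.668% of all genes were lower without overlap. No member was higher without overlap, where 1.38% of all genes were. PHGDH, the first enzyme of serine synthesis from glycolysis, was at 61.3, 78.3, 47.7 and 81.5 CPM in EDN1 1 to 4 and at 85.3, 142, 104 and 96.9 CPM in mock 1 to 4. The highest EDN1 library, EDN1 4, stood just under the lowest mock library, mock 1. Its log2 fold change was -0.67 (SE 0.21, 95% interval -1.14 to -0.20), and it ran from -0.78 to -0.51 when single libraries were left out.

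MTHFD1L, the mitochondrial enzyme that releases formate, was at 137, 123, 103 and 147 CPM in EDN1 1 to 4 and at 174, 206, 175 and 150.2 CPM in mock 1 to 4. EDN1 4 and mock 4, of the second set, were the neighbours across the gap. MTHFD1L averaged 127 ± 19.4 CPM in EDN1 overexpression and 176 ± 22.7 CPM in mock (SD, n = 4 each), or -0.47 on the log2 scale (SE 0.16). Within the first and second sets this difference was -0.51 and -0.28.

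MTHFD2, the mitochondrial dehydrogenase upstream of it, was at 246, 419, 221 and 367 CPM in EDN1 1 to 4 and at 474, 402, 472 and 419 CPM in mock 1 to 4. Only EDN1 2 reached the mock range, and the log2 fold change was -0.50 (SE 0.21). PSAT1 and PSPH, the enzymes of the later steps of serine synthesis, were at -0.37 (SE 0.19) and -0.40 (SE 0.19) on the log2 fold change scale, and SHMT2, which moves the serine carbon onto folate in mitochondria, was at -0.48 (SE 0.30). PSPH was -0.22 without mock 1, and with single libraries left out SHMT2 ranged from -0.81 without EDN1 2 to -0.31 without EDN1 3. Within the first and second sets PSPH was at -0.27 and -0.47 and SHMT2 at -0.21 and -0.56. ALDH1L2, a mitochondrial formyl-folate dehydrogenase, was the exception in this class, at 2.03, 3.96, 4.99 and 10.6 CPM in EDN1 1 to 4 and at 4.05, 1.97, 3.94 and 4.55 CPM in mock 1 to 4. Its log2 fold change of 0.54 (SE 0.46) rested on EDN1 4 and was -0.0089 without it.

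**Figure D3:**
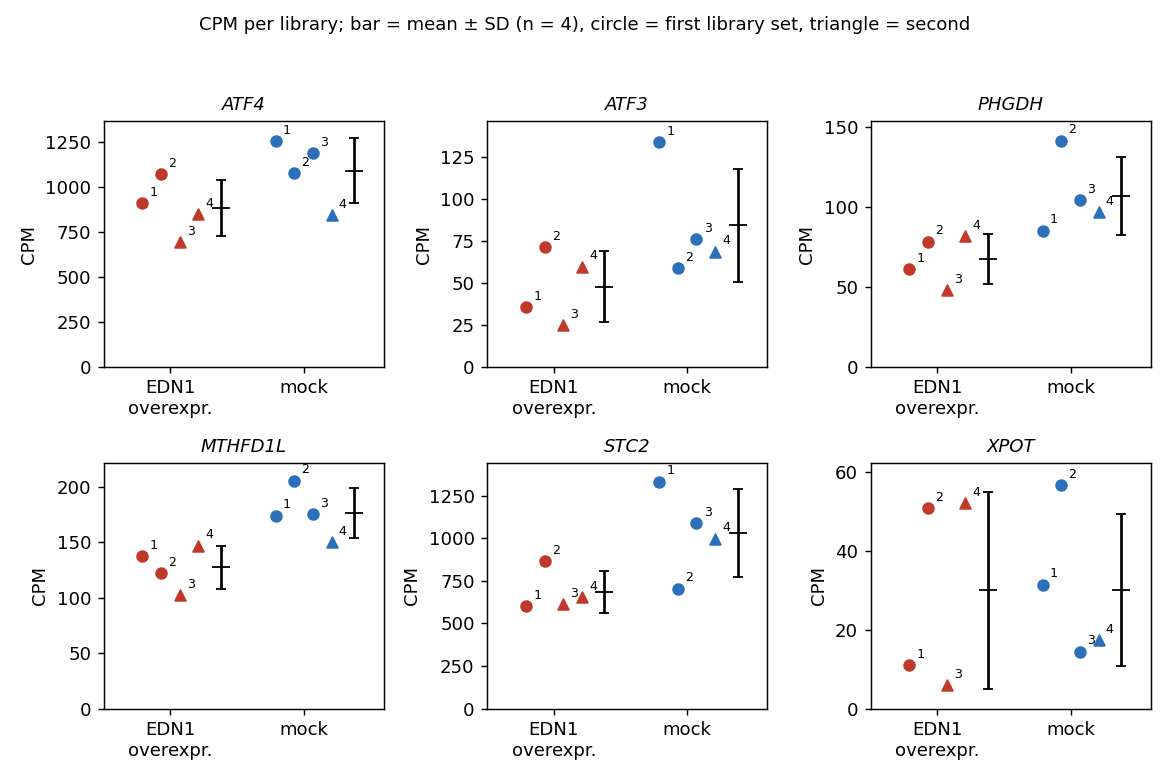
CPM per library (vertical axis from 0) for ATF4, ATF3, PHGDH, MTHFD1L, STC2 and XPOT in EDN1 overexpression (left, red) and mock (right, blue), with library numbers, circles for the first and triangles for the second library set, and the mean ± SD beside each group. The groups separate in PHGDH and MTHFD1L and overlap in the other 4 genes.

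All 8 of the other amino acid enzymes had negative fold changes in the main fit, most of them small, with a median of -0.14. ASNS, asparagine synthetase, was at 388, 596, 422 and 990.2 CPM in EDN1 1 to 4 and at 669.9, 989, 705 and 844 CPM in mock 1 to 4. EDN1 1, EDN1 2 and EDN1 3 were below all mock libraries, and EDN1 4 was the highest of the 8. For ASNS the log2 fold change was -0.42 (SE 0.29), -0.77 without EDN1 4 and -0.26 without EDN1 1.

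CBS, the first enzyme of transsulfuration, was at 155, 246, 54.6 and 95.8 CPM in EDN1 1 to 4 and at 211, 287, 284 and 81.0 CPM in mock 1 to 4. It followed the library sets, at 54.6 to 95.8 CPM in the second and 155 to 287 CPM in the first. Its log2 fold change of -0.65 (SE 0.47) was -0.38 and -0.12 in the first and second sets, -1.08 without EDN1 2 and -0.38 without EDN1 3. GOT1, the cytosolic aspartate aminotransferase, was at 544, 653, 590.1 and 849.8 CPM in EDN1 1 to 4 and at 807, 573, 859.8 and 729 CPM in mock 1 to 4. The groups overlapped widely, and the log2 fold change was -0.17 (SE 0.19), with -0.32 and -0.03 within the first and second sets. Leaving out single libraries moved GOT1 from -0.32 without EDN1 4 to -0.09 without EDN1 1 or mock 3. CTH, the second transsulfuration enzyme, was at -0.28 (SE 0.34) on the log2 fold change scale, with -0.72 without EDN1 4, -0.06 without EDN1 1, -0.08 without mock 4 and -0.61 in the first set. GPT2 (mitochondrial alanine aminotransferase), PYCR1 and ALDH18A1 (proline synthesis) and PCK2 (mitochondrial PEP carboxykinase) lay between -0.11 and -0.04. All but PYCR1 turned in sign in some settings. PCK2 was 0.045 and 0.24 within the first and second sets, ALDH18A1 0.0054 in the first and GPT2 0.0030 in the second. PYCR1 varied least of the tested members, from 942 to 1203 CPM over the 8 libraries.

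Of the 6 stress effectors, 5 were tested, and 4 of these (DDIT4, TRIB3, EIF4EBP1 and SESN2) had log2 fold changes from -0.52 to -0.39. XPOT was at -0.0042 and CHAC1 was not tested. DDIT4, an inhibitor of mTORC1, was at 318, 621, 305 and 363 CPM in EDN1 1 to 4 and at 737, 412, 573 and 526 CPM in mock 1 to 4. EDN1 2 was the second highest of the 8 libraries, and the other 3 EDN1 libraries were below all mock libraries. The log2 fold change was -0.49 (SE 0.26), and -0.78 without EDN1 2. Within the first and second sets it was -0.29 and -0.67.

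TRIB3, a pseudokinase that feeds back on ATF4, was at 326, 614, 366 and 278 CPM in EDN1 1 to 4 and at 853, 244, 637 and 535 CPM in mock 1 to 4. Mock 2 was the lowest library and mock 1 the highest, so the whole EDN1 range fell inside that of mock. The log2 fold change was -0.52 (SE 0.36), -0.25 without mock 1 and -0.81 without EDN1 2. Within the first and second sets it was -0.30 and -0.74. EIF4EBP1, which encodes the translation repressor 4E-BP1, was at 45.2, 59.7, 31.4 and 41.4 CPM in EDN1 1 to 4 and at 61.6, 59.5, 74.7 and 37.3 CPM in mock 1 to 4. It was lower in all 3 libraries of the second set, where its log2 fold change was -0.05, against -0.39 (SE 0.24) over all libraries and -0.25 without EDN1 3 or mock 3.

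SESN2, a leucine sensor upstream of mTORC1, was at -0.47 (SE 0.36) on the log2 fold change scale. It was at -0.08 without mock 1 and -0.27 without EDN1 4, and at -0.24 and -0.46 within the first and second sets. XPOT, the exporter of tRNA from the nucleus, is named here for its spread, seen in its values. It was at 11.1, 51.0, 5.87 and 52.1 CPM in EDN1 1 to 4 and at 31.5, 56.7, 14.5 and 17.5 CPM in mock 1 to 4. The 9.67-fold range from lowest to highest library compares with a median of 2.29-fold over the tested members, and high and low libraries occurred in both groups and both sets. CHAC1, the glutathione-degrading enzyme, did not pass the filter, with 5, 10, 3 and 3 counts in EDN1 1 to 4 and 8, 3, 4 and 2 counts in mock 1 to 4, too few to show a difference at this depth.

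Of the secreted products, STC2, a glycoprotein hormone, was at 600.4, 867, 614 and 654 CPM in EDN1 1 to 4 and at 1333, 704, 1091 and 998 CPM in mock 1 to 4. EDN1 1, EDN1 3 and EDN1 4 were below all mock libraries, and EDN1 2 lay above mock 2. The log2 fold change was -0.59 (SE 0.21, 95% interval -1.06 to -0.12), with -0.51 and -0.66 within the first and second sets.

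ADM2, a peptide of the calcitonin family, was at 24.0, 45.8, 15.5 and 16.7 CPM in EDN1 1 to 4 and at 56.7, 33.4, 44.6 and 25.1 CPM in mock 1 to 4. Its log2 fold change of -0.65 (SE 0.36) was -1.09 without EDN1 2, the one EDN1 library above mock 3, -0.43 without mock 1 and -0.37 within the first set. VLDLR, a lipoprotein receptor that ATF4 is known to induce, was at 5.44, 9.06, 3.59 and 13.6 CPM in EDN1 1 to 4 and at 9.04, 14.2, 11.5 and 12.6 CPM in mock 1 to 4. EDN1 1 and EDN1 3 were below every mock library, and the log2 fold change was -0.59 (SE 0.36), -0.98 without EDN1 4 and -0.34 without EDN1 3. FGF21, the liver's stress hormone, had 3, 1, 0 and 0 counts in EDN1 1 to 4 and 3, 0, 0 and 2 counts in mock 1 to 4. A count of 0 allows up to 3 counts, for counting error only, so FGF21 was at the limit of detection in both groups.

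How alike the members ran was described by the Pearson r of log2 CPM with ATF4 over the 8 libraries, which share groups and library sets. No p-value is given, since the points are not independent of either. ATF4, EIF4EBP1 and SHMT2 were each lower in every library of the second set than in any of the first. The members most like ATF4 over all libraries were EIF4EBP1 (r = 0.96), ADM2 (0.94) and SHMT2 (0.93), and 29 of the 34 other tested members had an r above 0. The median r was 0.61 over these members and -0.0070 over all other tested genes. After the means of the library sets were removed, the medians were 0.69 and -0.02, and the order changed. The 3 genes were then at 0.87, 0.83 and 0.79, below ATF3 (0.96), CTH (0.95), MTHFD2 (0.95), DDIT3 (0.92) and CEBPG (0.92). CTH had been at -0.01 over all libraries. EIF2AK4 ran opposite to ATF4, at -0.87 and, with set means removed, -0.69. Over the 595 member pairs, the median r was 0.42.

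**Figure D4:**
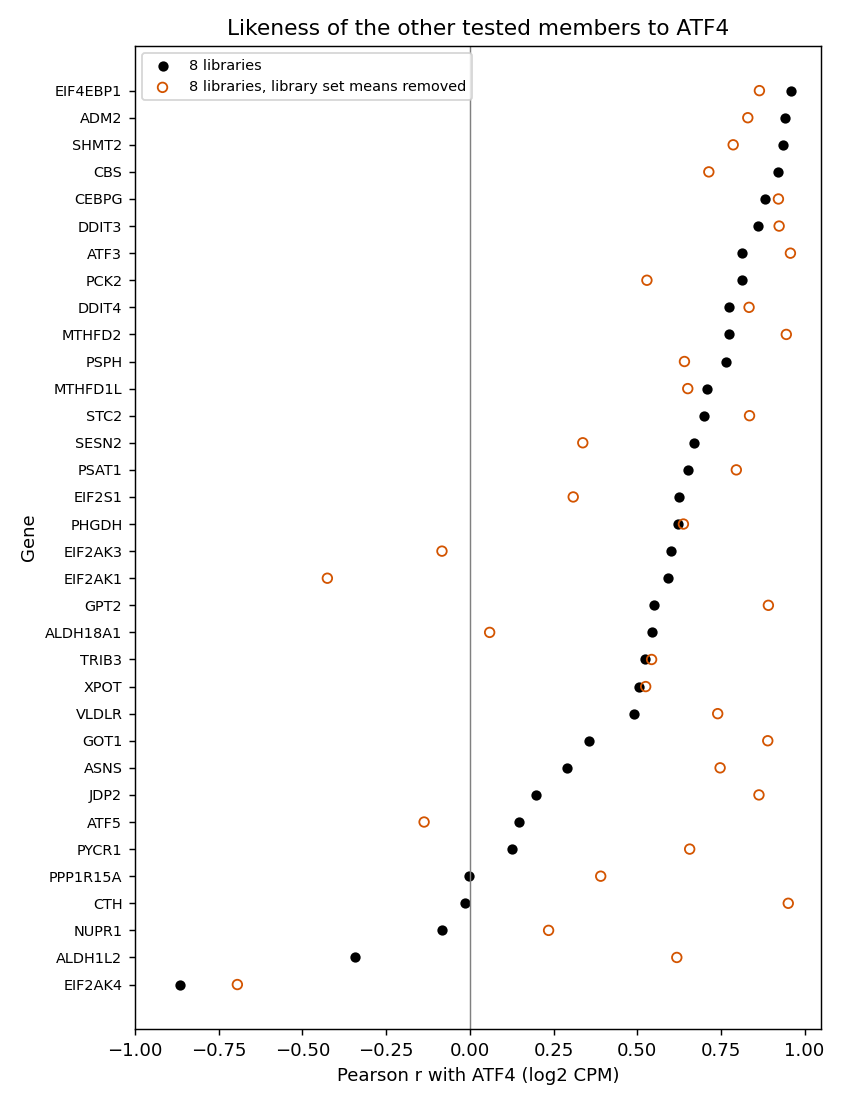
Pearson r of each other tested member with ATF4 (horizontal axis) over the 8 libraries, as measured (filled) and with the means of the library sets removed (open). EIF4EBP1 is at the top with 0.96 and EIF2AK4 at the bottom with -0.87.

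Other genes of the pathway were taken from lists written beside the members, also with earlier results of these data known. Counts over these lists are therefore descriptions. Of all tested genes, 49.7% had negative fold changes, and at an unadjusted p under 0.05 by edgeR 0.827% were lower and 2.03% higher. Of 36 other ATF4 targets, mainly amino acid transporters and tRNA synthetases, 32 had negative fold changes, with -0.24 as the median log2 fold change. Of these 36, 0 passed the edgeR test over all genes in either direction, and 3 were lower at an unadjusted p under 0.05. SLC7A11, the cystine importer, was at 196, 326, 200.1 and 385 CPM in EDN1 1 to 4 and at 482, 388, 393 and 388 CPM in mock 1 to 4. Its groups did not overlap, by a narrow gap, with a log2 fold change of -0.58 (SE 0.23). In this list 2 genes were lower without overlap, where 0.668% of all genes were. CLGN, a chaperone of the endoplasmic reticulum, and VEGFA, an angiogenic factor, were at -0.61 (SE 0.26) and -0.62 (SE 0.28) on the log2 fold change scale, with EDN1 1 and EDN1 3 the lowest libraries in both.

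Of 21 genes of the eIF2 and eIF2B machinery outside the members, 16 had negative fold changes, with a median of -0.07, and 0 passed the test, with 0 at an unadjusted p under 0.05. Among them EIF1, EIF5 and PPP1R15B, initiation factors and a constitutive phosphatase subunit, were at -0.31 (SE 0.17), 0.30 (SE 0.21) and -0.31 (SE 0.19). Of 26 bZIP partners and regulators of ATF4 turnover, 18 had negative fold changes, with a median of -0.16, and 0 passed, with 1 at an unadjusted p under 0.05. That gene was FOSL2, a Fos-related factor, at -0.61 (SE 0.23), and it alone of its list was lower without overlap. NFE2L2, the NRF2 gene, followed at -0.40 (SE 0.21) and TEF at 0.40 (SE 0.23).

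Of 19 folate, glycine and nucleotide partners, 11 had negative fold changes and the median was -0.04. SHMT1, the cytosolic counterpart of SHMT2, was at 0.30 (SE 0.16). The purine synthesis genes PPAT and GART were at -0.20 (SE 0.13) and -0.32 (SE 0.20). PPAT alone of its list was lower without overlap. Of 24 other amino acid and sulfur enzymes, 10 had negative fold changes and the median was 0.02. GPT, the cytosolic counterpart of GPT2, was at 1.03 (SE 0.42) from 2.92, 1.02, 2.63 and 1.04 CPM in EDN1 1 to 4 and 0.857, 0.987, 0.810 and 1.10 CPM in mock 1 to 4. GCLC, the rate-limiting glutathione synthesis enzyme, and BCAT2, a branched-chain aminotransferase, were at -0.38 (SE 0.22) and 0.49 (SE 0.35). In both of these lists 0 genes passed by edgeR, with 0 and 1 at an unadjusted p under 0.05.

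Reads of 10 members could be shared with overlapping genes of the table, and 8 members, among them ATF4, ASNS, PSAT1 and MTHFD2, have named pseudogenes or copies among which reads may have been split. The precision also bounds the comparison: the median standard error of the members' log2 fold changes was 0.24, of the same order as their median fold change.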

How the data were processed

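The authors deposited raw read counts per gene for 8 libraries, with a gene length. The submitters' processing notes list Bowtie2, edgeR and the build hg19. For the tool versions, the counter and strandedness, nothing is given in the sources used here. Groups and replicate numbers came from the titles. The members and gene lists were chosen with earlier results of these data known.

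The 25737 rows were summed by symbol, except 2 symbols that stand for different genes, giving 24462 genes. Genes were filtered with filterByExpr (minimum count 10), leaving 12577, scaled by TMM and tested by quasi-likelihood in edgeR 4.0.16 (R 4.3.3) with no term but the group, with p-values adjusted over all genes by Benjamini-Hochberg and a threshold of 0.05. The standard error is the fold change over the square root of F. The script was tested on simulated counts. Log2 CPM used a prior count of 2. Library sets came from average linkage on 1 minus the Pearson correlation of log2 CPM. Alternatives were DESeq2 1.42.0, limma voom 3.58.1, RLE scaling, no filter, the replicate number as a block, the library sets, and each library left out.

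Values in every library are given for ATF4, eIF2 alpha, its kinases, the 3 members of each role with the smallest unadjusted p and members whose groups do not overlap; others were named after their values were seen. Wider lists name their 3 genes with the smallest unadjusted p. GENCODE 29 served only for names of overlapping genes and of pseudogenes or copies.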

Additional observations from a re-analysis of the deposited data

Results flagged for a closer look

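In 70 groups of 4 libraries (35 members in both groups) 1 library stood apart from the other 3 of its group. ATF5 in EDN1 4 was at 24.5 CPM, against 45.8 to 49.6 CPM in the other 3 EDN1 libraries, and its gap to the nearest library was 0.888 of the group's range on the log2 CPM scale, above the limit of 0.829. Chance gives such a gap in about 1 of 20 groups. In mock, ATF5 ranged from 24.9 to 54.0 CPM, so the level of EDN1 4 was close to that of mock 2.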

How the results depend on the processing

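Over 16 alternatives, the number of tested members with a negative log2 fold change ran from 27 to 32 and their median from -0.41 to -0.22. DESeq2 called 2 genes higher and 1 lower, none of them members, and in every other alternative 1 gene was higher and 0 were lower. With the replicate number as a block, 30 members were negative, with a median of -0.38, and 9 were lower at an unadjusted p under 0.05. In that edgeR fit 550 of 12577 tested genes were at that limit in either direction, against 359 in the main fit. The deviations of same-numbered libraries correlated at 0.48, 0.15, -0.15 and 0.53, and 2 of the 4 EDN1 libraries correlated best with their own number, so the numbers were not taken as pairs. Of 560 single-member values, 520 kept their direction and 40 turned, in 10 members. By library set, EIF2AK1 was 0.084 with the set as a term, 0.086 in the first set and 0.068 in the second. PCK2 was 0.12, 0.045 and 0.24 in the same order. NUPR1 was -0.014 with the set as a term and -0.040 in the first set. ALDH1L2 was -0.18 and ALDH18A1 0.0054 in the first set. ATF5 was -0.075, XPOT 0.72 and GPT2 0.0030 in the second set, and XPOT was 0.15 with the set as a term and 2.5e-05 with DESeq2. With single libraries left out, the log2 fold changes ran from -0.36 to 0.061 for PPP1R15A, -0.19 to 0.10 for EIF2AK1, -0.13 to 0.28 for EIF2AK3, -0.18 to 0.29 for NUPR1, -0.17 to 0.19 for ATF5, -0.41 to 0.49 for XPOT, -0.0089 to 0.82 for ALDH1L2, -0.13 to 0.038 for ALDH18A1 and -0.24 to 0.12 for PCK2. The cause of these turns was not tested. Depth limits CHAC1 and FGF21, which had 10 counts or fewer in each library.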
